A study of Homo sapiens with 16 samples.

Results

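This account describes 40 interferon response genes among the 62700 genes of an RNA-seq table of OCI-AML3, an established human acute myeloid leukaemia (AML) cell line. The 40 genes were chosen by symbol, and comprise 4 interferon receptor chains, 6 transcription factors of the interferon regulatory factor (IRF) and STAT families, 2 feedback inhibitors, 1 RNA sensor and 27 interferon-stimulated effectors. The study asked how the synthetic retinoid Am80 (tamibarotene), which acts on the retinoic acid receptor RARA, compares with all-trans retinoic acid (ATRA), which acts on all retinoic acid receptors, alone and beside epigenetic inhibitors. Libraries came from untreated cells (n = 4) and from cells treated for 3 h with 0.1 µM ATRA (n = 3), with 0.1 µM Am80 (n = 3), with 0.1 µM ATRA plus both inhibitors (n = 3), or with 0.1 µM Am80 plus both inhibitors (n = 3). The inhibitors were GSK-LSD1 at 0.1 µM, which blocks the histone demethylase LSD1, and MB3 at 100 µM, which blocks the acetyltransferase GCN5, and the 2 groups that received them are called the ATRA combination and the Am80 combination. No group received the inhibitors without a retinoid, so the effect of the inhibitors could be measured only beside ATRA or Am80, and the parts of LSD1 and GCN5 inhibition cannot be told apart. No time point is given for the untreated cells, and the study's methods name no vehicle control. All libraries are from a single cell line. Whether replicates were separate cultures is not stated, so p-values measure only the spread between these libraries.

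Interferons signal through paired receptor chains to STAT proteins, and a complex of STAT proteins with IRF9 binds interferon-stimulated response elements (ISRE) in the promoters of interferon-stimulated genes. Interferon gamma signals through STAT dimers at gamma-activated sites (GAS), and IRF1, a target of that route, binds ISRE-like sequence as well. Many of the induced genes encode proteins that sense or block viral RNA, whereas SOCS1 and USP18 damp signalling at the receptor, and in myeloid cells parts of this programme are known to accompany retinoid-driven differentiation.

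Promoters of members with these elements are shown because the response of the genes is described below by element. Of the 40 genes, 30 had an entry among the RefSeq promoter windows (GRCh38.p14, 300 bases from 250 before to 50 after the start). Each stretch is the 150 bases just upstream of the start, written 5′ to 3′ on the strand of the gene, with ISRE or GAS matches in capitals. IRF1 carried a GAS at position -124 from the start, on the minus strand at chr5:132490774-132490923. IFIT1 had ISRE matches at -116 and -103 (plus strand, chr10:89392473-89392622). The second of the 2 IFIT3 starts had matches at -94 and -51 (plus strand, chr10:89332379-89332528). ISG15 had overlapping matches at -113 and -107 (plus strand, chr1:1013347-1013496). The second of the 2 RSAD2 starts had 1 match at -145 (plus strand, chr2:6877627-6877776).
IRF1: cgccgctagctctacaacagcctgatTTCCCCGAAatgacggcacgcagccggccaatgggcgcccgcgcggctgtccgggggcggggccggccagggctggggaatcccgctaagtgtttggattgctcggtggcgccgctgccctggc
IFIT1: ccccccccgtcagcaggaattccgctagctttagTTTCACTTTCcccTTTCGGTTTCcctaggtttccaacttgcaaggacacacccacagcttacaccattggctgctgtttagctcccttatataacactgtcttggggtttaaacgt
IFIT3: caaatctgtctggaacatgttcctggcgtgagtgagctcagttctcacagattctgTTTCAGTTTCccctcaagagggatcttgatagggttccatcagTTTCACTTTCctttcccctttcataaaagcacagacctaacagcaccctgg
ISG15: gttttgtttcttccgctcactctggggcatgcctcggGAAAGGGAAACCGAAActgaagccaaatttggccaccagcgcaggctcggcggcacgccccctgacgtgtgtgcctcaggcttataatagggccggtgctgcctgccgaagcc
RSAD2: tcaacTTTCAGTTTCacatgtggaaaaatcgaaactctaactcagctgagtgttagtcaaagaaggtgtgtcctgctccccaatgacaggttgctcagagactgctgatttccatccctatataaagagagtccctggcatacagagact

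The letters searched were GAAANNGAAA (ISRE, TTTCNNTTTC on the other strand) and TTCNNNGAA (GAS, which reads the same on both strands). In the third of the 3 MX1 starts, the ISRE match at -196 overlapped a GAS match at -189, and the other starts had no match upstream. An ISRE match was present in 3.57% of 35116 RefSeq promoter windows. Counted by gene, with a match in any of its windows, it was present in 4.38% of 27305 genes and in 19 of the 30 genes described here. A GAS match was present in 7.66% of the windows, in 9.38% of genes and in 7 of the 30. A match is a description of letters and not a bound site.

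Library depth ran from 11963898 to 33789718 reads on genes, and the deposited values are DESeq2-normalized counts (reads divided by a library size factor). The myeloid markers CD33, SPI1 and LYZ were abundant in all libraries (CD33 with at least 979 reads), whereas MPO had only 19 to 80 reads. Summed over the 8 myeloid markers, the level was 33795 to 37605 normalized counts in untreated cells and 29873 to 33054 in the treated libraries. Of 16 markers of other cell types, 10 had at most 3 reads in every library, among them CD3E, and the summed level of this list rested mostly on PECAM1. That sum was 1077 to 1245 in untreated cells, 2587 to 2733 with ATRA, 2644 to 2849 with Am80, 1780 to 2230 in the ATRA combination and 1729 to 1945 in the Am80 combination, and its part in the results was not tested. Untreated replicate 4 and Am80 replicate 2 stood apart from their replicates: pairs with either gave a chi-square per degree of freedom of 16 to 25.9, and the other replicate pairs gave 2.75 to 6.23. Counts of members called without these 2 libraries are given beside each comparison.

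In untreated cells the members spanned a wide range of levels. Per kilobase of exon, BST2 (tetherin, which holds budding virions at the cell surface) was the highest at 2583 ± 511 normalized counts (SD, n = 4), followed by ADAR, an RNA-editing enzyme, at 1194 ± 118. IRF3, the factor activated by nucleic acid sensing, reached 389 ± 32.2 normalized counts per kilobase, and MX2 350 ± 17.3, neighbours in the order whose mean ± SD ranges overlapped. The receptor chains IFNGR1 and IFNAR1 reached 200 ± 25.9 and 197 ± 16.2, again with overlapping ranges. IRF1 stood at 124 ± 6.45, and most antiviral effectors were lower, for example MX1 at 42.1 ± 1.97, IFIT1 at 12.5 ± 2.22 and GBP2 at 5.95 ± 1.59. Reads on the interferon genes themselves were at the floor in these libraries. Of 21 interferon genes, 15 had 0 reads in all 16 libraries and the highest count in any library was 2 reads, below the 3 reads taken as the floor.

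A mean of at least 10 normalized counts was required for testing, and 37 of the 40 members passed it. The 3 under it were IFI27, with 1 to 19 reads per library, IFI44, with 3 to 28 reads, and GBP1, with 0 to 4 reads. A gene was called when its adjusted p-value (limma, Benjamini-Hochberg over 14643 genes) was under 0.05 and its change at least 1.5-fold, and "rose" and "fell" are used only of such genes. Fold changes are on the log2(normalized count + 1) scale, which understates the change of genes with few reads. In bulk RNA, fewer cells that express a gene and less RNA per cell cannot be told apart.

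Retinoid alone changed few of the members, and the member that moved farthest was the transcription factor IRF1. IRF1, SOCS1 and GBP2 rose with each retinoid, and IFIT1 fell with each. With ATRA, 4 members rose, compared with 6.52% of all genes tested, and 2 fell, compared with 2.94% of all genes. With Am80, 3 rose (6.41% of all genes did) and 1 fell (3.76%). As shares of the 37 members these are 10.8% and 5.41% with ATRA and 8.11% and 2.7% with Am80, near the background. The median log2 fold change of the members was 0.11 with ATRA and 0.15 with Am80, beside -0.02 and -0.01 for all genes. Both comparisons use the same untreated libraries. Without untreated replicate 4, 6 members were called with ATRA and 5 with Am80, and without Am80 replicate 2 the counts were 6 and 4. Am80 replicate 2 is not in the ATRA comparison, where leaving it out could change only the shared estimate of the spread. Leaving out Am80 replicate 3 instead gave 5 members higher with Am80.

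Adding the inhibitors moved more of the members, mostly down, and most of those that fell were antiviral effectors. Beside ATRA, 13 members fell (35.1% of 37), compared with 11.4% of all genes, and 2 rose, compared with 8.15%. Beside Am80, 15 fell (40.5%), compared with 8.9% of all genes, and 3 rose, compared with 6.81%. The median log2 fold change of the members was -0.39 beside ATRA and -0.35 beside Am80, beside -0.02 and -0.01 over all genes. These 2 comparisons share no library. The 10 members that fell in both, of 13 and of 15, were ISG15, IFIT1, IFIT2, IFIH1, MX1, OAS1, OAS2, RSAD2, XAF1 and GBP2, and IFNAR1 rose in both. Without untreated replicate 4 the counts called were 15 and 18, and without Am80 replicate 2 they were 15 and 16. Untreated replicate 4 is in neither comparison, and Am80 replicate 2 is only in the second. Where a library is not compared, leaving it out could change only the shared estimate of the spread. Leaving out any 1 library gave 11 to 17 called beside ATRA and 15 to 18 beside Am80. The falls of GBP2, IFI35, OAS1 and OAS2 beside ATRA were lost without replicate 2 of the ATRA combination. Without ATRA replicate 2 or without replicate 1 of the ATRA combination, 1 member instead of 2 rose beside ATRA.

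**Figure D1:**
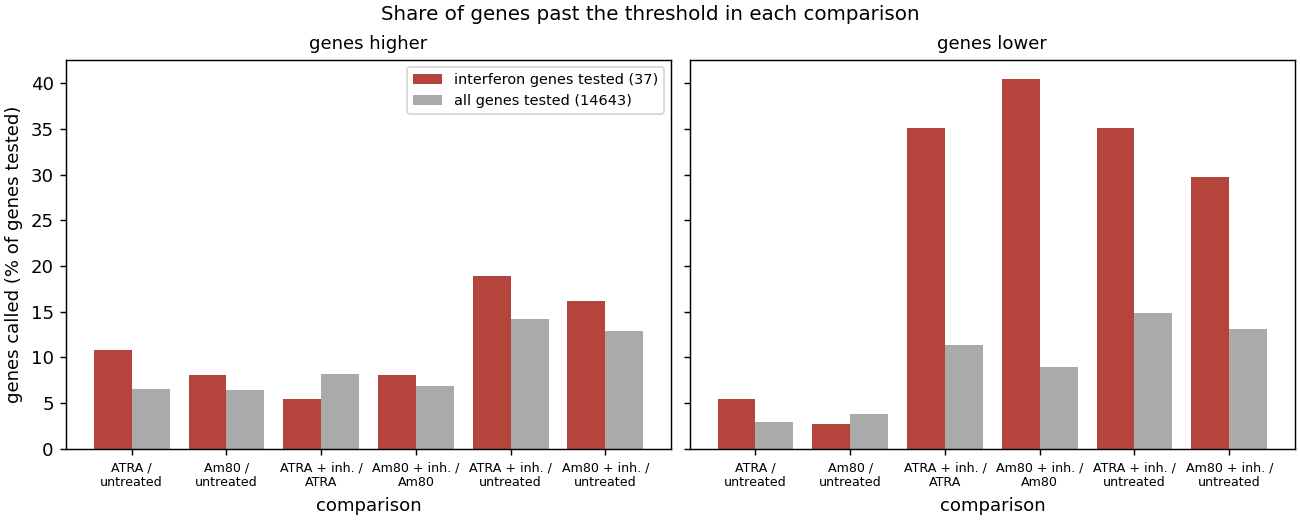
Share of genes called higher (left) and lower (right) in each comparison, in percent of genes tested. Red bars are the 37 interferon genes and grey bars all 14643 genes, and "inh." stands for both inhibitors. Among lower genes, the red bars reach 35.1% and 40.5% on adding the inhibitors, beside grey bars of 11.4% and 8.9%.

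Relative to untreated cells, IRF1, IRF9, SOCS1, IFNAR1 and IFNGR1 rose and IFIT1, IFIT2, IFIT3, IFI44L, IFIH1, MX1, RSAD2, ISG15, OAS2, XAF1 and USP18 fell in both combinations, whereas GBP2 and OAS1 were called in neither. In the ATRA combination 7 members were higher (14.2% of all genes were) and 13 lower (14.8%). In the Am80 combination 6 were higher (12.9%) and 11 lower (13.1%). Without untreated replicate 4 the totals were 18 and 16, and without Am80 replicate 2 they were 20 and 17. Am80 replicate 2 is in neither of these comparisons, so leaving it out could change only the shared estimate of the spread. The number lower in the ATRA combination was 8 when its replicate 2 was left out. Some of the falls depended on the setting. In the ATRA combination, that of IFIT3 was lost in 7 of 26 alternatives, and those of RSAD2 and OAS2 in 3 of 26 each. IFI44L was lost in 1 of 25 in the ATRA combination and in 5 of 25 in the Am80 combination. Among these 5 was DESeq2 with default settings (DESeq2 adjusted p = 0.0886). Median log2 fold changes were -0.15 and -0.21.

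**Figure D2:**
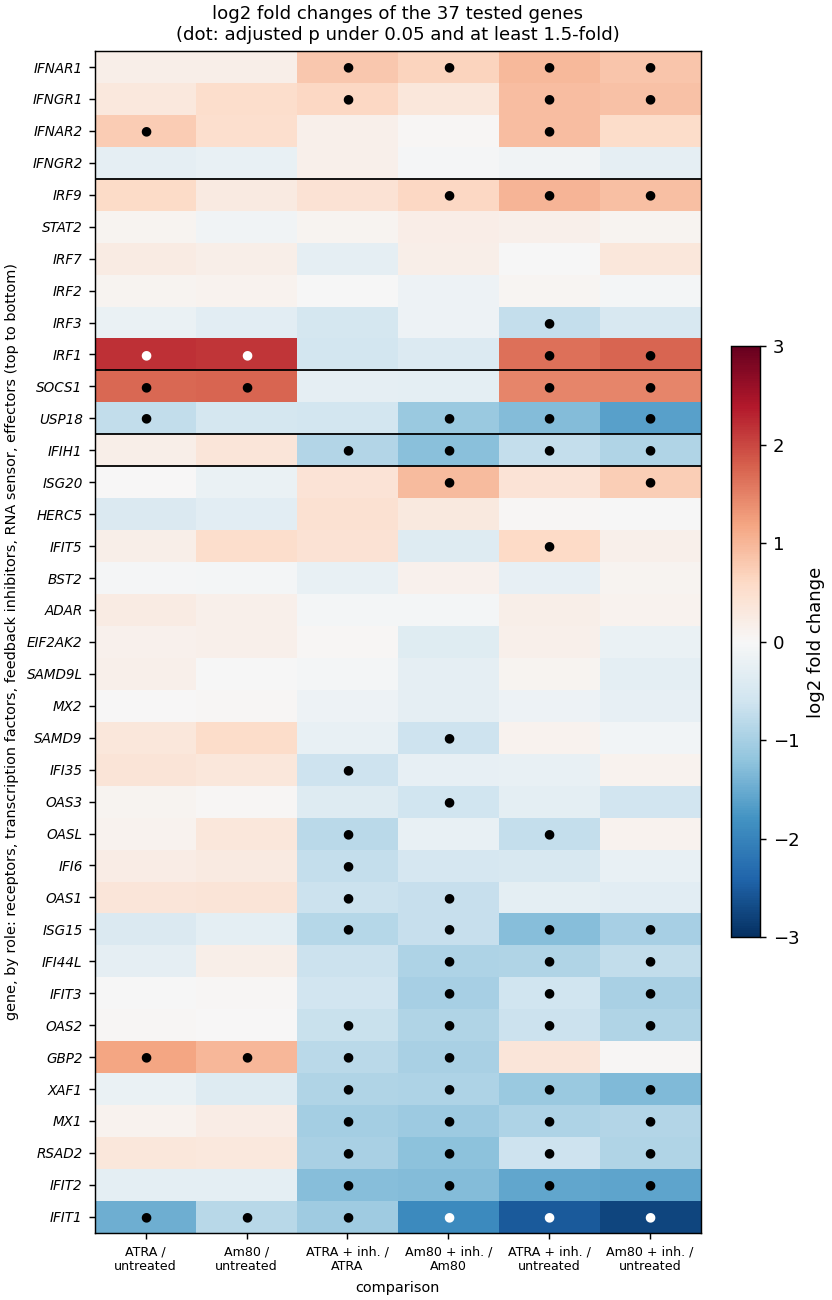
Log2 fold change of the 37 tested members (one per line, in blocks by role) in the 6 comparisons with a change of treatment (columns), red for higher and blue for lower. Dots mark genes with an adjusted p-value under 0.05 and at least 1.5-fold. IRF1 and SOCS1 are red in the columns against untreated cells. Many of the effectors, in the bottom block, are blue where inhibitors were added to a retinoid, but ISG20 and HERC5 are not.

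Among the receptor chains, IFNAR1 rose on adding the inhibitors, IFNAR2 rose with ATRA, IFNGR1 rose on adding the inhibitors to ATRA, and IFNGR2 was called in no comparison. IFNAR1 and IFNAR2 are the chains of the receptor for interferon alpha and beta, and IFNGR1 and IFNGR2 those of the receptor for interferon gamma. For IFNAR1, untreated cells had 1210 ± 99.6 normalized counts (SD, n = 4), against 1356 ± 87.4 with ATRA and 1357 ± 120 with Am80 (n = 3 each), and at 2373 ± 137 in the ATRA combination and 2142 ± 134 in the Am80 combination. Every combination library lay above every other library for this gene. Its rise on adding the inhibitors was 0.81 ± 0.08 (SE) on the log2 scale beside ATRA (limma adjusted p = 2.21e-07) and 0.66 ± 0.08 beside Am80 (limma adjusted p = 3.06e-06). With quantile normalization or scaling to total reads, the rise beside Am80 was 0.56 or 0.54 on the log2 scale, under 1.5-fold.

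IFNAR2 was at 195 ± 34.8 normalized counts in untreated cells, 327 ± 33.1 with ATRA, 274 ± 18.1 with Am80, 365 ± 32.5 in the ATRA combination and 281 ± 21.4 in the Am80 combination. All treated libraries were above all untreated libraries. The rise was 0.76 ± 0.12 with ATRA (limma adjusted p = 6.99e-05), whereas the difference of 0.51 ± 0.12 with Am80 was under 1.5-fold (limma adjusted p = 0.00334). The difference between the retinoids, -0.25 (95% CI -0.52 to 0.02), was not called. IFNGR1 went from 589 ± 76.3 normalized counts in untreated cells to 733 ± 34.6 with ATRA, 847 ± 16.6 with Am80, 1120 ± 51.5 in the ATRA combination and 1079 ± 21.3 in the Am80 combination. On adding the inhibitors it rose by 0.61 ± 0.09 beside ATRA (limma adjusted p = 1.24e-05), and beside Am80 the difference was 0.35 ± 0.09, under 1.5-fold. The call beside ATRA was lost without ATRA replicate 2 (0.57), without replicate 1 of the ATRA combination (0.58), with quantile normalization (0.54) and with scaling to total reads (0.46), each on the log2 scale and under 1.5-fold. Relative to untreated cells, IFNGR1 rose by 0.94 and 0.88 in the 2 combinations. IFNGR2 stayed between 198 and 291 normalized counts over all libraries.

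IRF1, a transcription factor induced by interferon gamma, was the member that moved farthest with retinoid. Its normalized counts were 445, 451, 494 and 484 in the untreated libraries, 2155, 2161 and 2151 with ATRA, and 2188, 1898 and 2156 with Am80. The combinations had 1480, 1441 and 1521 (ATRA) and 1552, 1570 and 1558 (Am80). The 5 sets of values fell into 3 levels that did not overlap: untreated, combination and retinoid alone. IRF1 rose 4.6-fold with ATRA (log2 2.20 ± 0.06, limma adjusted p = 1.24e-16) and 4.43-fold with Am80 (2.15 ± 0.06, limma adjusted p = 2.03e-16). On adding the inhibitors it was lower by a log2 difference of -0.54 ± 0.07 beside ATRA (limma adjusted p = 2.13e-06) and -0.41 ± 0.07 beside Am80 (limma adjusted p = 5.99e-05), both under 1.5-fold. It was still 3.16-fold and 3.33-fold above untreated cells.

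IRF9, the DNA-binding partner of STAT2 in the complex that binds ISRE, had 105, 131, 113 and 93.1 normalized counts in untreated cells, 158, 198 and 141 with ATRA, 111, 157 and 135 with Am80, 210, 215 and 243 in the ATRA combination, and 214, 201 and 207 in the Am80 combination. All combination libraries were above all others, and the Am80 libraries overlapped with the untreated ones. It rose by 1.01 ± 0.14 in the ATRA combination (limma adjusted p = 2.26e-06) and 0.91 ± 0.14 in the Am80 combination (limma adjusted p = 9.15e-06) relative to untreated cells. Beside Am80 the inhibitors gave a rise of 0.63 ± 0.15 (limma adjusted p = 0.00166), which was under 1.5-fold with edgeR (0.58), without Am80 replicate 1 (0.50) and with scaling to total reads (0.51). Beside ATRA the difference was 0.44 ± 0.15, under 1.5-fold.

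STAT2, whose protein carries the activating domain of that complex, had 693, 722, 724 and 595 normalized counts in untreated cells, 710, 754 and 693 with ATRA, 562, 671 and 658 with Am80, 741, 779 and 758 in the ATRA combination, and 693, 716 and 767 in the Am80 combination. Its groups overlapped in most comparisons, and it was called in none, with log2 fold changes between -0.12 and 0.21 in the 6 comparisons with a change of treatment. IRF3 had 930 ± 77 normalized counts in untreated cells, 816 ± 72.1 with ATRA, 743 ± 83.4 with Am80, 561 ± 18.6 in the ATRA combination and 664 ± 25.5 in the Am80 combination. It fell by 0.72 ± 0.08 in the ATRA combination relative to untreated cells (limma adjusted p = 3.72e-07), and the difference of -0.48 ± 0.08 in the Am80 combination was under 1.5-fold. IRF2, which can compete with IRF1 at its sites, and IRF7, which amplifies interferon alpha transcription, were called in no comparison. Their group means were 324 to 360 and 82.8 to 106 normalized counts.

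Relative to untreated cells, the feedback inhibitor SOCS1 rose and the other, USP18, fell in both combinations. SOCS1, which inhibits JAK kinases at the receptor, had 16.7, 12, 12.5 and 15.5 normalized counts in untreated cells, 45.3, 41.4 and 61.2 with ATRA, 43.6, 44.5 and 63.6 with Am80, 47.8, 38.0 and 36.4 in the ATRA combination, and 35.1, 57.7 and 33.5 in the Am80 combination. All treated libraries lay above all untreated ones, and the treated groups overlapped. SOCS1 rose 3.3-fold with ATRA (log2 1.72 ± 0.22, limma adjusted p = 3.81e-06) and 3.38-fold with Am80 (1.76 ± 0.22, limma adjusted p = 2.78e-06). The inhibitors gave differences of -0.26 ± 0.24 and -0.28 ± 0.24, which did not pass the test.

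USP18, which removes ISG15 from proteins and blocks IFNAR2, had 89.2, 81.3, 69.7 and 68.7 normalized counts in untreated cells, 54.0, 40.5 and 42.5 with ATRA, 57.6, 50.2 and 51.4 with Am80, 37.1, 21.7 and 35.2 in the ATRA combination, and 36.2, 24.7 and 15.4 in the Am80 combination. Values went down in steps, with both retinoids below untreated cells and each combination below its retinoid. USP18 fell by 1.11 ± 0.25 on adding the inhibitors to Am80 (limma adjusted p = 0.0013), and relative to untreated cells it fell by 1.30 ± 0.23 in the ATRA combination and fell by 1.63 ± 0.23 in the Am80 combination. With ATRA alone it fell by 0.75 ± 0.23 (limma adjusted p = 0.0212), but the adjusted p was 0.0599 without untreated replicate 1, 0.0916 without ATRA replicate 2 and 0.0751 without ATRA replicate 3. With Am80 alone the difference was -0.53 ± 0.23 (limma adjusted p = 0.0949), and on adding the inhibitors to ATRA it was -0.55 ± 0.25 (limma adjusted p = 0.0691).

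**Figure D3:**
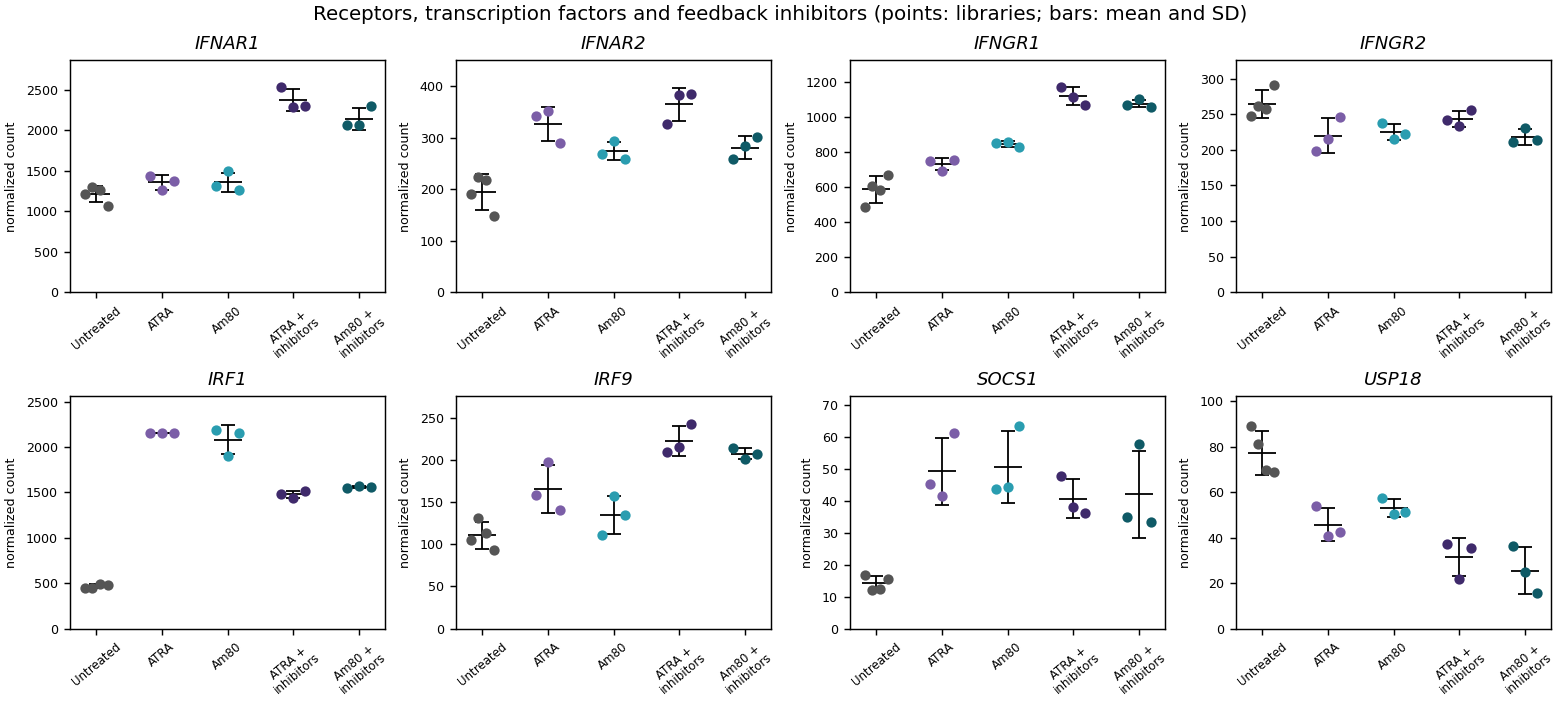
Normalized counts of 8 receptor, transcription factor and feedback genes in the 5 groups. Points are libraries (4 untreated, 3 in each other group), bars are the mean and SD. IRF1 and SOCS1 are lowest in untreated cells, IFNAR1 is highest in the combinations, and USP18 is highest in untreated cells.

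The RNA sensor IFIH1 (MDA5), which detects long double-stranded RNA in the cytosol, had 139, 148, 149 and 125 normalized counts in untreated cells, 167, 154 and 155 with ATRA, 171, 206 and 163 with Am80, 90.8, 100 and 68.2 in the ATRA combination, and 72.4, 70.1 and 82.4 in the Am80 combination. The retinoid libraries were all above the untreated ones, and the combination libraries all below them. It fell by 0.89 ± 0.14 on adding the inhibitors to ATRA (limma adjusted p = 3.09e-05) and by 1.25 ± 0.14 on adding them to Am80 (limma adjusted p = 5.84e-07). With retinoid alone the differences were 0.17 ± 0.13 and 0.35 ± 0.13, under 1.5-fold. Relative to untreated cells it fell by 0.71 in the ATRA combination and by 0.90 in the Am80 combination. The first of these calls was lost without replicate 3 of the ATRA combination, where the log2 difference was -0.55.

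Of the 27 effectors, 24 were tested. On adding the inhibitors, 12 fell and 0 rose beside ATRA, and 13 fell and 1 rose beside Am80, with medians of -0.64 and -0.61 on the log2 scale. Of all genes tested, 11.4% fell and 8.15% rose beside ATRA, and 8.9% fell and 6.81% rose beside Am80. With retinoid alone, 1 effector rose and 1 fell in each comparison. The 4 IFIT genes, whose proteins bind foreign RNA, did not move alike. How reads shared between related genes were counted is not stated, so values within the IFIT, OAS, MX, GBP and SAMD9 families carry that uncertainty.

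IFIT1 had 46.0, 58.2, 56.0 and 70.9 normalized counts in untreated cells. With ATRA it had 22.2, 23.3 and 15.8, and with Am80 29.7, 32.1 and 32.5. It had 7.81, 7.61 and 12.5 in the ATRA combination, and 8.77, 5.50 and 9.01 in the Am80 combination. Its values formed separate steps: untreated, then Am80, then ATRA, then the overlapping combinations. It fell by 1.46 ± 0.24 with ATRA (limma adjusted p = 8.93e-05) and by 0.84 ± 0.24 with Am80 (limma adjusted p = 0.0112). On adding the inhibitors it fell further, by 1.07 ± 0.26 beside ATRA (limma adjusted p = 0.00182) and by 1.92 ± 0.26 beside Am80 (limma adjusted p = 6.22e-06). Relative to untreated cells, its fold change on the log2(normalized count + 1) scale was 0.173 in the ATRA combination and 0.148 in the Am80 combination. This was the largest fall of the 37 tested members in those comparisons.

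IFIT2 had 29.3, 45.3, 33.6 and 41.0 normalized counts in untreated cells, 31.8, 31.9 and 26.6 with ATRA, 15.8, 44.0 and 38.3 with Am80, 12.7, 16.3 and 7.96 in the ATRA combination, and 8.77, 12.4 and 14.2 in the Am80 combination. The combinations lay below all untreated and ATRA libraries, and Am80 replicate 1 was far below the other 2 Am80 libraries. It fell by 1.27 ± 0.32 and 1.30 ± 0.32 on adding the inhibitors to ATRA and Am80 (limma adjusted p = 0.00298 and 0.00319). IFIT3, which stabilises IFIT1 in a complex, had 62.8, 81.3, 97.2 and 93.1 in untreated cells, 81.0, 85.4 and 79.9 with ATRA, 77.1, 92.7 and 83.9 with Am80, 49.8, 51.1 and 63.7 in the ATRA combination, and 31.8, 45.4 and 50.2 in the Am80 combination. Retinoid libraries lay within the untreated range, and combination libraries were below their own retinoid in every case. IFIT3 fell by 1.0 ± 0.18 beside Am80 (limma adjusted p = 0.000195), while the difference beside ATRA, -0.58 ± 0.18, was just under 1.5-fold (limma adjusted p = 0.0123). IFIT5 was called only in the ATRA combination against untreated cells, with a rise of 0.59 ± 0.16 that just passed 1.5-fold (73.5 ± 6.33 against 48.5 ± 3.77 normalized counts). It was under 1.5-fold without untreated replicate 1 (0.55) or 2 (0.58), without replicate 1 (0.54) or 3 (0.56) of the ATRA combination, with scaling to total reads (0.44) and with a pseudocount of 5 (0.55).

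MX1, a GTPase that blocks RNA viruses, had 159, 172, 178 and 171 normalized counts in untreated cells, 192, 185 and 174 with ATRA, 201, 194 and 196 with Am80, 105, 75.0 and 90.9 in the ATRA combination, and 78.9, 93.5 and 107 in the Am80 combination. Every combination library was below every other library. MX1 fell by 1.03 ± 0.13 beside ATRA (limma adjusted p = 2.18e-06) and by 1.08 ± 0.13 beside Am80 (limma adjusted p = 1.25e-06). Its relative MX2 had a level of 857 to 1133 normalized counts over all libraries, and was called in no comparison. RSAD2 (viperin), an enzyme that makes a chain-terminating nucleotide, had 99.0, 122, 95.9 and 96.4 in untreated cells, 155, 121 and 118 with ATRA, 131, 132 and 122 with Am80, 67.4, 59.8 and 72.7 in the ATRA combination, and 64.7, 46.7 and 52.8 in the Am80 combination. The combination libraries were again below all the others. RSAD2 fell by 0.96 ± 0.15 beside ATRA (limma adjusted p = 2.75e-05) and by 1.22 ± 0.15 beside Am80 (limma adjusted p = 1.96e-06).

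ISG15, a ubiquitin-like protein that is attached to other proteins after interferon, had 69.7, 85.9, 74.7 and 109 normalized counts in untreated cells, 49.2, 68.1 and 70.6 with ATRA, 76.1, 60.1 and 68.0 with Am80, 37.1, 27.2 and 38.6 in the ATRA combination, and 59.2, 37.1 and 32.2 in the Am80 combination. The combination libraries were below their own retinoid, and replicate 1 of the Am80 combination came close to the Am80 range. It fell by 0.85 ± 0.22 beside ATRA (limma adjusted p = 0.00366) and by 0.70 ± 0.22 beside Am80 (limma adjusted p = 0.0167). The call beside Am80 was lost without Am80 replicate 1 (adjusted p = 0.0704 with limma), without replicate 2 (0.0649) or 3 (0.0989) of the Am80 combination, and with quantile normalization (0.0633). ISG20, an exonuclease, had 20.9, 18.5, 21.2 and 12.2 in untreated cells, 13.5, 18.1 and 23.0 with ATRA, 15.8, 15 and 15.2 with Am80, 23.4, 25.0 and 23.9 in the ATRA combination, and 28.5, 30.2 and 32.2 in the Am80 combination. ISG20 rose by 0.94 ± 0.24 beside Am80 (limma adjusted p = 0.00438), where it was the only effector called higher, and beside ATRA the difference was 0.42 ± 0.24 (limma adjusted p = 0.166).

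GBP2, a guanylate-binding protein induced by interferon gamma, had 15.3, 16.6, 8.72 and 12.2 normalized counts in untreated cells, 33.7, 26.7 and 31.0 with ATRA, 31.6, 26.9 and 22.4 with Am80, 16.6, 14.1 and 20.5 in the ATRA combination, and 9.87, 17.9 and 12.9 in the Am80 combination. The retinoid libraries were above all others, and the combinations overlapped with untreated cells. GBP2 rose by 1.18 ± 0.26 with ATRA (limma adjusted p = 0.00162) and by 1.0 ± 0.26 with Am80 (limma adjusted p = 0.00543). It fell by 0.81 ± 0.27 on adding the inhibitors to ATRA (limma adjusted p = 0.0193) and by 0.97 ± 0.27 on adding them to Am80 (limma adjusted p = 0.0082). The fall beside ATRA was lost without ATRA replicate 1 (adjusted p = 0.0672 with limma), without ATRA replicate 3 (0.0508), without replicate 2 of the ATRA combination (0.0792) and with no filter (0.0592). IFI44L had 20.9, 25.9, 31.1 and 24.4 in untreated cells, 15.4, 27.6 and 21.6 with ATRA, 30.6, 32.6 and 23.9 with Am80, 16.6, 7.61 and 17 in the ATRA combination, and 14.3, 12.4 and 18 in the Am80 combination. Its ATRA and ATRA combination libraries overlapped. IFI44L fell by 0.92 ± 0.29 beside Am80 (limma adjusted p = 0.0165), a call lost without Am80 replicate 1 (0.0541) or 2 (0.0516) or replicate 2 of the Am80 combination (0.0662).

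**Figure D4:**
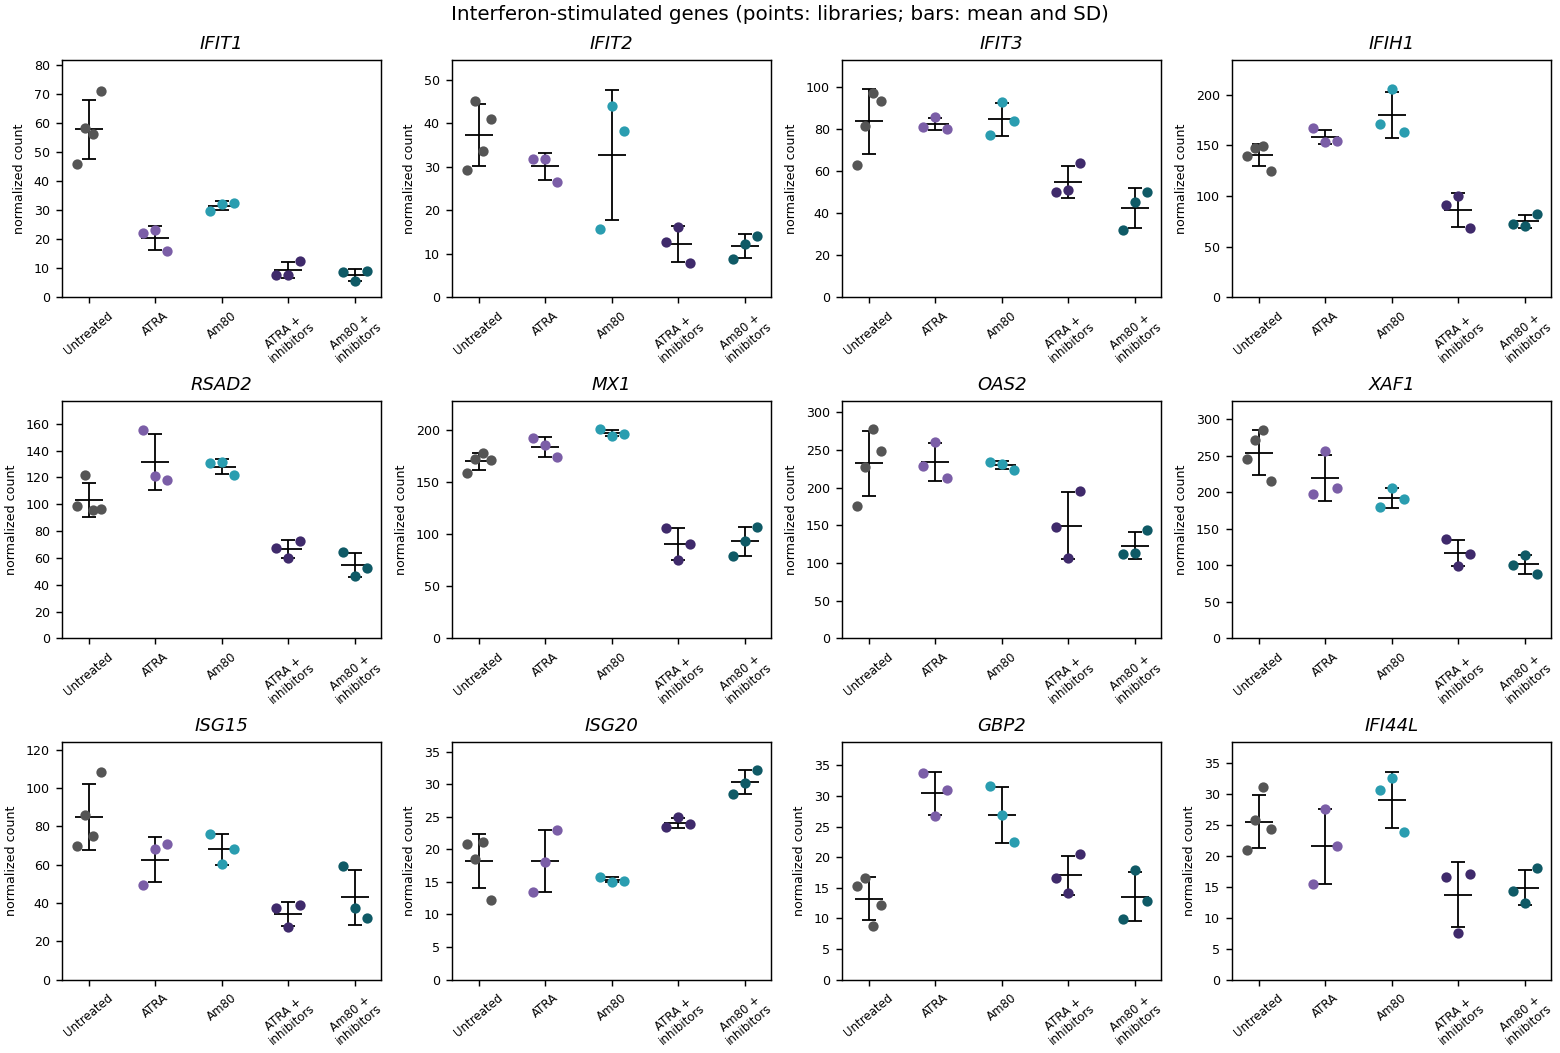
Normalized counts of 12 interferon-stimulated genes, IFIH1 among them, in the 5 groups. Points are libraries (4 untreated, 3 in each other group), bars are the mean and SD. IFIT1 steps down from untreated cells to the combinations, MX1 and RSAD2 are lowest in the combinations, GBP2 is highest with retinoid alone, and ISG20 is highest in the Am80 combination.

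XAF1, a pro-apoptotic antagonist of an apoptosis inhibitor, had 254 ± 31 normalized counts in untreated cells, 220 ± 31.7 with ATRA, 192 ± 13.5 with Am80, 117 ± 18.4 in the ATRA combination and 101 ± 12.6 in the Am80 combination. It fell by 0.91 ± 0.14 beside ATRA (limma adjusted p = 2.45e-05) and by 0.92 ± 0.14 beside Am80 (limma adjusted p = 2.57e-05). Among the oligoadenylate synthetases, which activate an RNA-cleaving enzyme, OAS2 had 232 ± 43, 234 ± 24.9, 230 ± 5.06, 150 ± 44.5 and 123 ± 18.1 normalized counts in the same order of groups. OAS2 fell by 0.68 ± 0.18 and 0.90 ± 0.18 beside ATRA and Am80 (limma adjusted p = 0.00366 and 0.000414). OAS1 had 95.8 ± 10.2, 123 ± 11.6, 125 ± 8.38, 78.3 ± 15.2 and 76.8 ± 10.3, and fell by 0.66 ± 0.15 and 0.70 ± 0.15 (limma adjusted p = 0.00146 and 0.00104). Without replicate 2 of the ATRA combination, the differences beside ATRA were -0.46 (OAS2) and -0.49 (OAS1), and without ATRA replicate 2 that of OAS1 was -0.58, all under 1.5-fold. With quantile normalization OAS2 (-0.55) and OAS1 (-0.52) beside ATRA and OAS1 beside Am80 (-0.55) were also under 1.5-fold.

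Of the effectors, 5 more were called beside 1 retinoid each. OAS3 fell by 0.61 ± 0.15 beside Am80 (157 ± 8.09 to 103 ± 13.3 normalized counts, limma adjusted p = 0.00311), and the difference was under 1.5-fold without Am80 replicate 2 (-0.57), without replicate 3 of the Am80 combination (-0.50) and with quantile normalization (-0.47). SAMD9, an antiviral translation repressor, fell by 0.62 ± 0.12 beside Am80 (767 ± 113 to 498 ± 68.1, limma adjusted p = 0.000246), with differences of -0.51 without Am80 replicate 2 and -0.51 without replicate 1 of the Am80 combination. OASL, an OAS relative that lacks synthetase activity, fell by 0.82 ± 0.27 beside ATRA (27 ± 3.31 to 15 ± 2.85, limma adjusted p = 0.0159), and the adjusted p was 0.0627 without ATRA replicate 1, 0.0615 without replicate 1 of the ATRA combination and 0.0526 with DESeq2. IFI6, a mitochondrial and endoplasmic reticulum protein, fell by 0.71 ± 0.20 beside ATRA (266 ± 14.5 to 164 ± 29.1, limma adjusted p = 0.00681). IFI35 fell by 0.62 ± 0.15 beside ATRA (352 ± 17 to 231 ± 40.2, limma adjusted p = 0.00262), but the difference was under 1.5-fold without replicate 2 of the ATRA combination (-0.48) and with quantile normalization (-0.53). None of these showed a called interaction, so a difference between the retinoids was not shown for them. ADAR, BST2, EIF2AK2 (PKR), HERC5, MX2 and SAMD9L were called in none of the 9 comparisons, although HERC5, the ligase that attaches ISG15, differed by -0.43 ± 0.12 with ATRA and by 0.47 ± 0.13 on adding the inhibitors to ATRA (limma adjusted p = 0.0131 and 0.00591, both under 1.5-fold).

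By promoter letters, 10 of the 13 genes with an entry that fell beside at least 1 retinoid had an ISRE match, compared with 6 of the 14 tested genes with an entry that did not fall beside either. These counts mix role with letters. Of the 14, the transcription factors and receptor chains IRF1, IRF9, STAT2, IFNAR1, IFNGR1 and IFNGR2 had no ISRE match. Among its effectors, ISG20, IFIT5, EIF2AK2, BST2 and HERC5 had a match, and SAMD9L and ADAR had none. A link between the letters and falling was not tested. The 3 genes that were not tested, IFI27, IFI44 and GBP1, all had an ISRE match and are in neither count. Among the 7 with an entry that fell beside both retinoids, 5 had an ISRE match and 2 a GAS match. IFIT1, ISG15, IFIH1 and RSAD2 held ISRE letters only, MX1 held both, OAS1 held GAS letters only, and XAF1 held neither. Of the genes that rose with both retinoids, IRF1 held GAS letters and SOCS1 ISRE letters. BST2 and EIF2AK2, with ISRE matches, were called in no comparison.

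The other genes of the pathway were taken by list. Of 42 further interferon-stimulated genes, 37 were tested. Of these, 4 rose and 1 fell with ATRA, 6 rose and 1 fell with Am80, 1 rose and 10 fell on adding the inhibitors to ATRA, and 1 rose and 11 fell on adding them to Am80. The shares of all genes tested that rose and fell were 6.52% and 2.94% with ATRA, 6.41% and 3.76% with Am80, 8.15% and 11.4% on adding the inhibitors to ATRA, and 6.81% and 8.9% on adding them to Am80. GBP4, another guanylate-binding protein, rose by 2.99 (ATRA) and 3.11 (Am80) on the log2 scale, from 96.2 ± 10.1 to 769 ± 37.6 and 838 ± 70.9 normalized counts, and GBP3 by 1.31 and 1.32. TDRD7 fell by 1.11 with ATRA and by 0.96 with Am80. PARP9, which works with DTX3L in the interferon response, had 215 ± 18.8 normalized counts in untreated cells, 338 ± 15.6 with ATRA and 127 ± 14.7 in the ATRA combination. Its fall on adding the inhibitors was 1.42 beside ATRA and 1.68 beside Am80, the largest in the list beside either.

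Of 13 kinases and negative regulators, all tested, 1 rose with each retinoid, and 5 and 3 fell on adding the inhibitors to ATRA and Am80. Of all genes, 6.52% rose with ATRA and 6.41% with Am80, and 11.4% and 8.9% fell on adding the inhibitors. SOCS3, an inhibitor of cytokine receptor signalling, rose by 1.24 with ATRA and 1.22 with Am80, and fell by 1.69 and 1.29 on adding the inhibitors. SOCS2, of the same family, fell by 1.30 and 1.60. Of 8 nucleic acid sensing genes, 7 were tested. With ATRA 1 rose, with Am80 2 rose, and on adding the inhibitors 2 rose and 2 fell beside ATRA and 1 rose and 2 fell beside Am80, against shares of all genes of 8.15% and 11.4% beside ATRA and 6.81% and 8.9% beside Am80. STING1, the adaptor downstream of CGAS, rose from 2882 ± 150 normalized counts to 10151 ± 350 with ATRA and 8793 ± 687 with Am80. CGAS, the cytosolic DNA sensor, had 775 ± 41.2 in untreated cells, 2516 ± 269 in the ATRA combination and 2953 ± 184 in the Am80 combination, with rises on adding the inhibitors of 1.17 and 1.30. DHX58 (LGP2), an RNA sensor related to IFIH1, fell by 1.44 and 1.06.

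Of 10 other IRF and STAT genes, 7 were tested. IRF5 fell by 0.81 with ATRA and 0.82 with Am80, and STAT5A rose by 0.97 and 0.91 on adding the inhibitors to ATRA and Am80. These were the only calls of that list in the comparisons with retinoid alone and on adding the inhibitors. Of 23 genes for interferons and further receptor chains, 1, IL10RB, was tested, and it was called in no comparison.

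Am80 and ATRA were compared directly at the same dose and time, without and with the inhibitors, in 37 members each. No member was called in either comparison, nor in the interaction of retinoid and inhibitors. Among all genes tested, 0.0478% were called in Am80 against ATRA, 0% in the Am80 combination against the ATRA combination, and 0% in the interaction. By edgeR and DESeq2 the counts of members were 0 as well. Leaving out any 1 library gave 0 members in Am80 against ATRA, 0 to 1 between the combinations and 0 in the interaction. At an unadjusted p under 0.05 there were 4, 9 and 7 members (limma), and their smallest adjusted p-values were 0.28, 0.14 and 0.226. A p-value that misses the threshold does not show that the compounds act alike, so the intervals are given.

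Without the inhibitors, the 95% confidence interval of the difference lay inside 1.5-fold for 27 of the 37 members and reached past it for 10. IRF1 was among the narrow ones, at -0.05 (95% CI -0.19 to 0.09), and SOCS1 was at 0.03 (-0.46 to 0.53). IFIT1 had the largest estimate, 0.62 (0.08 to 1.15, limma adjusted p = 0.28), and its 3 Am80 libraries were all above its 3 ATRA libraries. With the inhibitors, the interval lay inside 1.5-fold for 20 members and reached past it for 17. OASL had the largest estimate, 0.83 (0.28 to 1.39, limma adjusted p = 0.159), with 37.3, 24.7 and 21.9 normalized counts in the Am80 combination and 12.7, 14.1 and 18.2 in the ATRA combination. Without untreated replicate 4, which leaves this estimate as it is, OASL passed at an adjusted p of 0.0491 (limma). EIF2AK2, a kinase that halts translation on double-stranded RNA, had the smallest adjusted p (0.14, limma), with a difference of -0.36 (-0.57 to -0.15) and all Am80 combination libraries below all ATRA combination libraries. In the interaction, the largest absolute estimate was that of IFIT1, -0.84 (-1.60 to -0.09, limma adjusted p = 0.289).

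**Figure D5:**
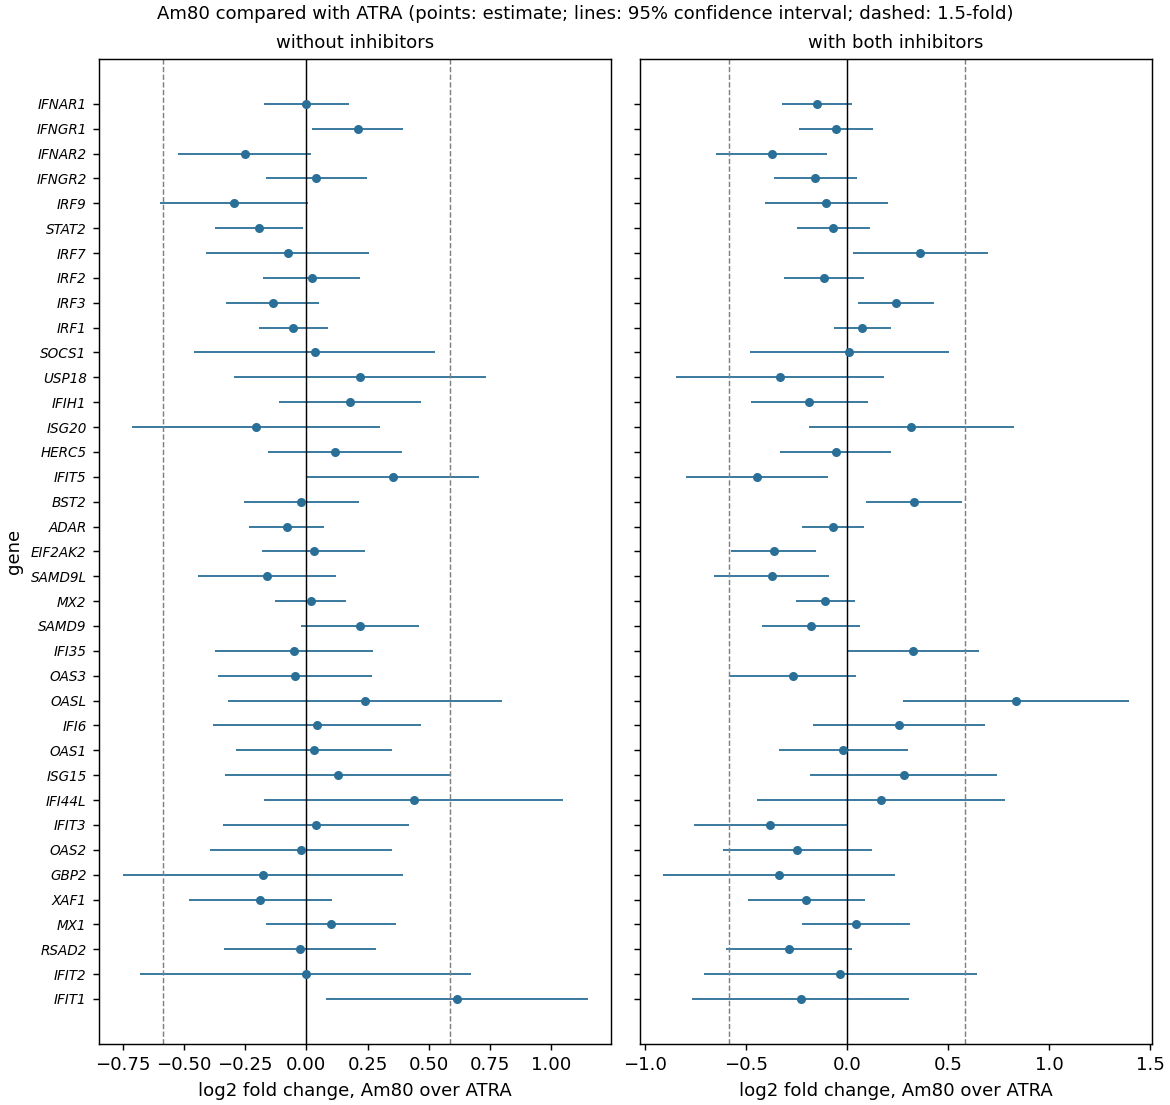
Log2 fold change of Am80 over ATRA for the 37 tested members, without inhibitors (left) and with both inhibitors (right). Points are limma estimates, lines are 95% confidence intervals and dashed lines mark 1.5-fold. IFIT1 on the left (0.62) and OASL on the right (0.83) lie farthest to the right, and IRF1 lies near 0 in both panels.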

How the data were processed

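RNA of OCI-AML3 cells was sequenced in 16 libraries. The signal values are DESeq2-normalized counts: per the labels and the study's methods, the authors trimmed, aligned and counted the reads (cutadapt, STAR and featureCounts, on Galaxy) and deposited the table after scaling every library with DESeq2 size factors. Tool versions, genome build, annotation and strand setting are not given in the sources used here, so overlapping antisense genes cannot be separated. Whole reads were recovered from 100% of the values (tolerance 0.001).

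The scale was log2(normalized count + 1), genes averaging under 10 over all libraries were left out, and the rest were fitted with limma 3.58.1 (R 4.3.3) with a mean-variance trend and 1 coefficient per group, so that all groups shared an estimate of the spread. P-values were adjusted by Benjamini-Hochberg over 14643 genes within each of 9 comparisons, and a call needed an adjusted p under 0.05 and 1.5-fold. Scripts were tested on simulated data. All 62700 gene identifiers were matched to symbols. Levels per kilobase used the exon union of GENCODE on GRCh38, and promoters came from RefSeq. Every member called with retinoid alone or on adding the inhibitors was named, with values per library for the 12 with the largest change and for IRF1, IRF9, STAT2 and ISG15. Of the other pathway lists at most 4 genes with large changes were named. The members, lists and tests were chosen with earlier results of these data known. Alternatives were pseudocounts of 0.5 and 5, quantile normalization, no filter, a filter at 50, only the groups compared, edgeR 4.0.16, DESeq2 1.42.0, a replicate block, other thresholds, each library left out and, added after seeing the data, scaling to total reads. No intervals for counting error are given, and the floor of 3 reads covers counting error only.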

Additional observations from a re-analysis of the deposited data

Results flagged for a closer look

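In 2 of the 37 tested members, 1 untreated library lay far from the other 3 by Dixon's criterion for 4 samples, which chance meets in about 1 in 20 groups. For RSAD2, untreated replicate 2 had 121.9 normalized counts, and the others had 95.9 to 99.0. For SAMD9, untreated replicate 4 had 450.9, and the others had 543.9 to 546.8.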

How the results depend on the processing

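The counts of members called changed most with the thresholds. With no limit on the fold change, 12 members were called with ATRA (6 with it) and 12 with Am80 (4 with it). With an adjusted p under 0.01 and 2-fold, 2 were called with Am80, 3 on adding the inhibitors to ATRA, 6 on adding them to Am80, and 8 and 6 in the ATRA and Am80 combinations relative to untreated cells. When members had to average 50 normalized counts, the counts were 2 with ATRA, 1 with Am80 and 11 in the Am80 combination, since fewer members were tested. Leaving out 1 library at a time gave 0 to 1 members in the Am80 combination against the ATRA combination, where OASL passed without untreated replicate 4. The other counts stayed within 1.5 times their value: 5 to 7 with ATRA, 4 to 6 with Am80, 11 to 17 and 15 to 18 on adding the inhibitors to ATRA and Am80, and 15 to 20 and 16 to 18 in the combinations relative to untreated cells. The 80 calls of named members were followed at the main thresholds only, over the alternative fits that tested the gene. Of them, 57 held in every such fit, 23 were lost in at least 1, and 0 reversed. The other thresholds were not part of this count, and a member averaging under 50 was not tested with the filter at 50.

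Scaling to total reads shifted the median of all genes by -0.16 and -0.13 on adding the inhibitors to ATRA and Am80 (log2), and gave 1 member higher and 18 lower, and 1 higher and 16 lower. With the replicate block, 6, 5, 15, 18, 18 and 16 members were called in the 6 comparisons with a change of treatment, against 6, 4, 15, 18, 20 and 17. Pairing of the libraries by the labels' numbers was not detected. Of 30 correlations of same-numbered libraries, 4 were over 0.1 (range -0.11 to 0.19), and 4 of 15 libraries correlated best with their own number. A weak shared effect could be missed with so few libraries per group. Low counts limit the precision for ISG20, SOCS1, GBP2, IFIT1, IFIT2, OASL and IFI44L.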
